A study of Mus musculus with 6 samples.

Results

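The genes described here encode the machinery that loads Sm proteins onto spliceosomal small nuclear RNAs (snRNAs). They were chosen by name for what their products do, with earlier results of these data known: *Smn1*, *Gemin2*, *Gemin4*, *Gemin5*, *Gemin6*, *Gemin7*, *Gemin8* and *Strap*, whose products make up most of the SMN complex, and *Prmt5* and *Clns1a*, whose products belong to the methylosome. These 10 genes were all found among the 24421 gene symbols of the count table, and all 10 were among the 15584 genes with enough reads to be tested. None of the 10 passed the test between mutant and WT heads.

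RNA was sequenced from heads of mouse embryos at E9.0, each library being made from 2 heads of embryos matched for somite number and taken from different litters. The 3 mutant libraries came from *Snrpb* ncc+/- embryos, which carry *Snrpb* loxP/+ together with the Wnt1-Cre2 transgene (tg/+), so that exons 2 and 3 of a single *Snrpb* allele are deleted. The 3 WT libraries are labelled as wild type (SnrpB +/+), and elsewhere the study's controls could carry the loxP allele or the transgene alone. In both groups the labels give C57BL/6 as strain and CD1 as cell line, although heads were used. The study describes its embryos as being on a mixed CD1 and C57BL/6 background, which was taken as meant. The labels name the age as post natal beside E9.0, which was taken as the age. Wnt1-Cre2 is active in neural crest and in the neural tube, and every other cell of a mutant head keeps both copies of *Snrpb*, so a difference in the deleted cells is diluted in these whole-head values. In such bulk RNA, fewer cells of a type and less RNA per cell cannot be told apart.

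A spliceosomal snRNP is built in the cytoplasm on a newly exported snRNA. The methylosome, in which *Clns1a* encodes the chaperone pICln and *Prmt5* the arginine methyltransferase, holds and methylates newly made Sm proteins, SmB among them. The SMN complex then receives these proteins, selects the snRNA and closes the Sm ring around it at a short uridine-rich stretch, the Sm site. Loss of *SMN1* in people causes spinal muscular atrophy, and *Snrpb* encodes SmB itself, a substrate of this machinery, which is why these genes bear on a *Snrpb* mutant. Whether their RNA differed between the groups is the question asked of the table.

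The Sm sites of mouse snRNAs are shown here because they are the place where the products of the 10 genes act. The sequences were read from the snRNA transcripts of Gencode M21, which follow mm10, on the RNA strand with T for U. Each is a stretch of 27 or 28 bases, 5′ to 3′, in which capitals mark the only match to ATTTNTG or ATTTNNTG.

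U1 snRNA, *Rnu1a1* (chr11:87422867-87423030, plus strand): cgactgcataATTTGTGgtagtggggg
U2 snRNA, *Rnu2-10* (chr11:101658238-101658428, plus strand): tattaaatggATTTTTGgaagtaggag
U5 snRNA, *Rnu5g* (chr9:65201726-65201841, minus strand): tcttaaaccaATTTTTTGaggccttgtc
U11 snRNA, *Rnu11* (chr4:132270080-132270213, minus strand): cggaagcataATTTTTTGgtaattgggc
U12 snRNA, *Rnu12* (chr15:83149644-83149794, plus strand): tgtgagaagaATTTTTGagcgggtata

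The match begins at base 126 of 164 in *Rnu1a1*, at base 99 of 191 in *Rnu2-10*, at base 88 of 116 in *Rnu5g*, at base 88 of 134 in *Rnu11* and at base 75 of 151 in *Rnu12*. U6 snRNA, which carries a ring of Lsm proteins instead, held no match in *Rnu6*. Counts were read for the U11 and U12 snRNAs of the minor spliceosome and for *Rnu6*, which had 1 read in all 6 libraries together. U7 snRNA, which acts on histone RNA, was listed at 0 in all 6 (*Rnu7*). The symbols looked up for U1, U2 and U5, *Rnu1a1*, *Rnu2-10* and *Rnu5g* among them, were not found in the count table. *Rnu11* had 114, 147 and 116 counts in the WT libraries and 102, 199 and 242 in the mutant libraries, and *Rnu12* had 102, 161 and 167 in WT and 113, 288 and 339 in mutants. In CPM (the count of a gene relative to the library's size, scaled with edgeR's TMM factors), *Rnu11* stood at 2.92 ± 0.364 in WT and 2.89 ± 0.657 in mutants and *Rnu12* at 3.35 ± 1.01 and 3.86 ± 1.21 (mean ± SD, n=3 each), and the groups overlapped for both. Short RNAs are poorly captured by such libraries, so these levels do not measure the snRNA pool.

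The libraries held between 36378803 and 74909774 counted reads. *Snrpb*, the targeted gene, was at 429.9, 438.2 and 414.2 CPM in WT and at 436.5, 412.4 and 430.3 CPM in the libraries labelled mutant, and the groups overlapped. A count per gene also holds reads from the exons outside the deletion and from cells without Cre, so it does not check the genotype. Summed CPM of 8 neural crest markers ranged from 286 to 375 in WT and from 330 to 358 in mutants, and that of 8 neural tube markers from 646 to 770 and from 628 to 655. Those of surface ectoderm summed to between 342 and 472 in WT, lowest in WT library 1, and to between 464 and 472 in mutants. Head mesoderm markers were between 125 and 157 in WT and between 118 and 142 in mutants, endothelial markers between 231 and 279 and between 223 and 264, and primitive erythroid markers, without *Hba-a1*, which had no read, between 880 and 1494 and between 890 and 1215. In the 11 marker lists, 0 genes passed edgeR's test, and 0 had an unadjusted *P* under 0.05, beside 8.43% of all tested genes. By point estimate, 7 of 8 neural crest, 6 of 7 surface ectoderm and 1 of 8 neural tube markers were higher in mutants. So were 2 of 7 head mesoderm, 3 of 7 endothelial and 0 of 7 tested primitive erythroid markers. The pools also differed in other respects. Summed CPM of 4 Y-linked genes was between 62.8 and 120 in WT and between 111 and 228 in mutants, and *Xist* was at 0.368 CPM in mutant library 2 against 65.05 or more in each of the other 5. Cardiac markers were at 6.84 CPM in WT library 1 and between 21.9 and 79.0 in the others, whereas visceral endoderm markers were at 28.7 in WT library 1 and between 6.47 and 8.12 elsewhere. Posterior Hox genes, which mark the trunk, stayed at 0.9472 CPM or less. The part of these differences in the values below was not tested. The fold changes of *Snrpb* and of the 10 genes were also computed without each library and with the Y-linked level as covariate.

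*Smn1* (in mm10 and Gencode M21, chr13:100124852-100137690, plus strand) encodes the SMN protein, which binds the methylated tails of Sm proteins through its Tudor domain and gives the complex its name. It was at 42.8, 37.5 and 35.6 CPM in the WT libraries and at 40.6, 39.2 and 38.5 CPM in the mutant libraries. The 3 mutant values lay within the range of the WT values. The log2 fold change was 0.03 (SE 0.07, 95% interval -0.13 to 0.19), with an adjusted *P* of 0.928 in edgeR's quasi-likelihood test over all tested genes. 

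*Gemin2* (chr12:59013393-59028470, plus strand) encodes the partner of SMN that clamps the incomplete Sm ring. Its levels were 18.9, 20.5 and 18.6 CPM in WT and 18.7, 20.4 and 19.3 CPM in mutants, again with all mutant values inside the WT range. The log2 fold change of *Gemin2* was 0.01 (SE 0.07, 95% interval -0.14 to 0.16; adjusted *P*=0.982, edgeR).

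*Gemin8* (chrX:166170454-166190512, plus strand), on the X chromosome, encodes the protein that ties Gemin6 and Gemin7 to SMN. It was the lowest of the 10 genes, at 10.6, 8.62 and 9.27 CPM in WT and 9.45, 10.3 and 9.46 CPM in mutants. The highest and the lowest of these 6 values were both WT libraries. Its log2 fold change was 0.04 with the largest error of the 10 genes (SE 0.10, 95% interval -0.19 to 0.26; adjusted *P*=0.936, edgeR), and its smallest count was 343 reads.

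*Gemin6* (chr17:80224441-80228497, plus strand) and *Gemin7* (chr7:19564946-19577595, minus strand) encode a pair of proteins with an Sm-like fold. *Gemin6* was at 26.7, 27.9 and 27.0 CPM in WT and at 28.9, 24.6 and 27.6 CPM in mutants, where mutant library 1 was the highest and mutant library 2 the lowest of all 6. *Gemin7* was at 33.9, 31.0 and 31.0 CPM in WT and at 29.8, 30.2 and 31.3 CPM in mutants. Apart from the high value in WT library 1, the *Gemin7* values of both groups lay close together. The log2 fold change was -0.01 for *Gemin6* (SE 0.07, 95% interval -0.16 to 0.14; adjusted *P*=0.982, edgeR) and -0.07 for *Gemin7* (SE 0.06, 95% interval -0.20 to 0.06; adjusted *P*=0.772, edgeR).

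*Strap* (chr6:137735078-137751932, plus strand) encodes Unrip, a WD-repeat protein that joins the cytoplasmic complex and also binds receptors of TGF-β signalling. It was the most abundant of the 10 genes, at 324.2, 324.8 and 327.7 CPM in WT and at 347.7, 324.2 and 326.2 CPM in mutants. The WT values agreed within a coefficient of variation of 0.581%, the smallest of the 10 genes, and only mutant library 1 stood above them. The log2 fold change of *Strap* was 0.03 (SE 0.04, 95% interval -0.06 to 0.12; adjusted *P*=0.864, edgeR).

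*Gemin5* (chr11:58120002-58168539, minus strand) encodes the subunit that recognises the snRNA, through its Sm site and cap. Its levels were 220.1, 190.9 and 193.7 CPM in WT and 197.1, 176.9 and 193.3 CPM in mutants. The groups overlapped, since mutant library 1 was above WT libraries 2 and 3. The log2 fold change of *Gemin5* was -0.09 (SE 0.06, 95% interval -0.24 to 0.05; adjusted *P*=0.724, edgeR). With all 6 libraries this was the largest log2 fold change of the 10 genes in size, but without WT library 1 it was -0.03, closer to 0 than *Gemin8* (0.12) and *Smn1* (0.10).

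*Gemin4* (chr11:76210571-76217664, minus strand) encodes a cofactor that is bound to the helicase Ddx20, also called Gemin3. It was at 105.8, 103.2 and 109.7 CPM in WT and at 104.4, 97.1 and 101.4 CPM in mutants. Mutant libraries 2 and 3 were below all WT libraries, and mutant library 1 was not. Its log2 fold change of -0.07 had the lowest *P* of the 10 genes (SE 0.04, 95% interval -0.17 to 0.03; unadjusted *P*=0.133, adjusted *P*=0.683, edgeR). The count of *Gemin4* is uncertain. In Gencode M21, 89.8% of its 3734 exon bases are also exon of *Glod4* on the same strand, and 77.0% are exon of *Fam57a* on the other strand. *Glod4* was at 80.1 ± 5.13 CPM in WT and 78.4 ± 3.85 CPM in mutants (mean ± SD, n=3), and how reads in shared exons were assigned is not given in the sources used here. *Gemin7* shares 14.8% of its exon bases with the antisense gene *Zfp296*, which stayed under 1 CPM in every library, and *Clns1a* shares 3.14% with an antisense RNA.

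*Prmt5* (chr14:54507187-54517525, minus strand) encodes the enzyme that places symmetric dimethylarginine on SmB, SmD1 and SmD3, and it methylates histones as well. It was at 264.9, 260.2 and 246.4 CPM in WT and at 257.5, 244.6 and 252.8 CPM in mutants. WT library 1 was the highest and mutant library 2 the lowest. The log2 fold change of *Prmt5* was -0.03 (SE 0.04, 95% interval -0.13 to 0.06; adjusted *P*=0.870, edgeR).

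*Clns1a* (chr7:97696634-97720796, plus strand) encodes pICln, which keeps Sm proteins from binding RNA too early. It was at 216.0, 243.8 and 212.8 CPM in WT and at 230.7, 227.0 and 227.4 CPM in mutants. The mutant libraries agreed within a coefficient of variation of 0.896%, and all of them lay between the WT values. Its log2 fold change was 0.03 (SE 0.05, 95% interval -0.10 to 0.15; adjusted *P*=0.915, edgeR).

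**Figure D1:**
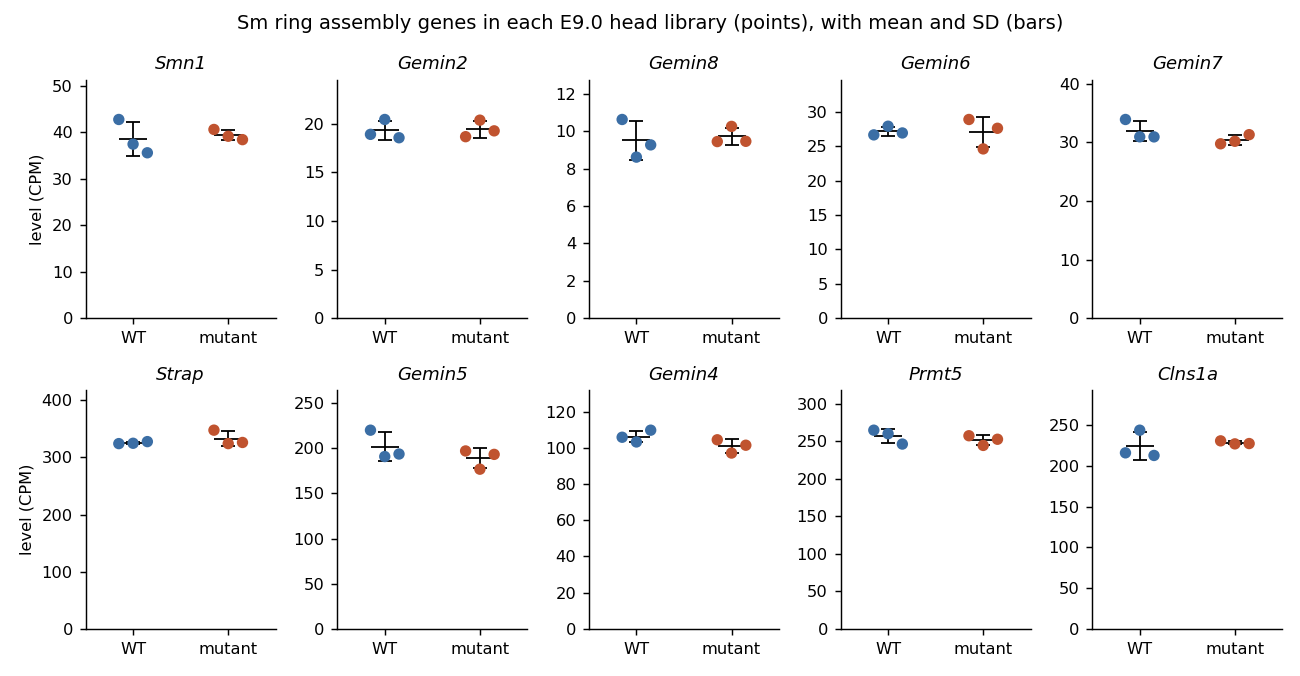
CPM of each of the 10 genes (vertical axes from 0, a scale of its own for each gene) in the 3 WT (blue) and 3 mutant (orange) libraries, ordered 1 to 3 from left to right, with the mean and SD in black. The points of both groups overlap for all 10 genes, and the separation of WT library 1 from WT libraries 2 and 3 is seen in *Smn1*, *Gemin8*, *Gemin7* and *Gemin5*.

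Counted over the 10 genes, 0 had an adjusted *P* under 0.05 in edgeR's test, where 0.00642% of all tested genes did. At an unadjusted *P* under 0.05 the count was also 0 of 10, beside 8.43% of all tested genes. With DESeq2, 0 of 10 passed, beside 0.651% of the genes for which it gave an adjusted *P*, and the lowest adjusted *P* of the 10 was 0.869. In none of the 10 genes did the 3 mutant values lie entirely above or below the 3 WT values, as they did in 15.2% of all tested genes. By point estimate 5 genes were higher in mutants (*Smn1*, *Gemin2*, *Gemin8*, *Strap* and *Clns1a*) and 5 lower (*Gemin4*, *Gemin5*, *Gemin6*, *Gemin7* and *Prmt5*), of which *Gemin6* turned to higher when counts were scaled by library size only. Their median log2 fold change was -1e-04, beside 4e-04 for all tested genes. Counts of 0 among 10 genes are near each of these shares, and nothing particular to the 10 genes is read from them.

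For each gene, the 95% interval gives the range of differences that its values allow, without adjustment over all tested genes. It is not a limit of detection. Over the 10 genes, the 95% intervals reached from a fall of 0.24 (*Gemin5*) to a rise of 0.26 (*Gemin8*) on the log2 scale, and all 10 held 0. The median SE of the 10 genes was 0.0603, beside 0.0869 for all tested genes. These are not of like level, since all tested genes reach down to a mean of 0.147 CPM and the 10 genes to 9.6 CPM. The genes of the methylosome and *Strap* had the narrowest intervals together with *Gemin4*. Their partners in the complexes were measured as closely. *Wdr77*, which encodes the WD-repeat partner of Prmt5, had a log2 fold change of 0.00 (SE 0.05, 95% interval -0.10 to 0.11), and *Ddx20* one of -0.05 (SE 0.05, 95% interval -0.15 to 0.06).

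**Figure D2:**
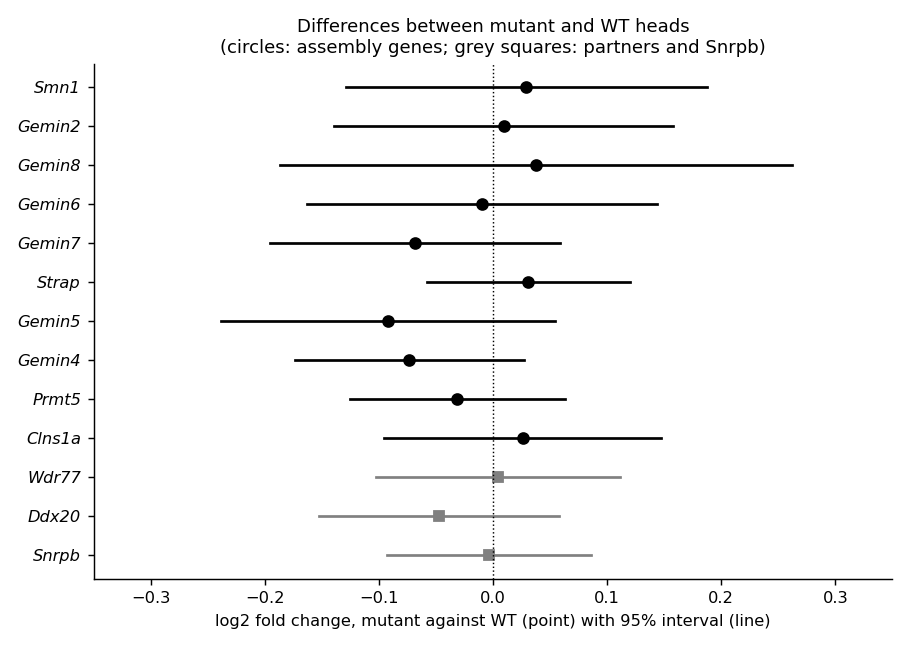
Log2 fold change of mutant against WT (horizontal axis, point) with its 95% interval from edgeR (line) for the 10 genes (black circles), for *Wdr77*, *Ddx20* and *Snrpb* (grey squares). Every interval crosses 0, the lowest bound among the 10 genes is -0.24 in *Gemin5* and the highest 0.26 in *Gemin8*.

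The 10 genes together took 1241 ± 26.6 CPM in WT and 1229 ± 35.5 CPM in mutants (mean ± SD, n=3), or between 0.120% and 0.127% of all counted reads in each library. Within groups, the median coefficient of variation of the 10 genes was 5.27% in WT and 3.78% in mutants, and it was smaller among mutants in 7 of 10 genes. The same was seen in 64.3% of all tested genes, with medians of 5.12% and 3.84% in the 8944 tested genes within the same range of mean CPM, so the 10 genes varied about as much as other genes of their level. The extreme values were unevenly spread over the libraries. WT library 1 held the highest value of 5 of the 10 genes and of 24.7% of all tested genes, and mutant library 2 the lowest value of 5 of the 10 genes and of 12.8% of all tested genes. These are the libraries with the high visceral endoderm and low surface ectoderm sums and with the low *Xist* level, and the part of those differences was not tested. The highest library exceeded the lowest by 1.07-fold in *Strap* and by 1.24-fold in *Gemin5*, counted over all 6 libraries.

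Levels can be compared between genes only per length. As CPM per kb of exon in Gencode M21, *Strap* was the highest at 105.4 ± 0.613 in WT and 107.7 ± 4.23 in mutants (mean ± SD, n=3). The methylosome genes followed, *Prmt5* with 65.0 ± 2.42 in WT and *Clns1a* with 58.1 ± 4.42. These overlapped in WT and not in mutants, so their order is not firm. *Gemin5* (30.5 ± 2.43) and *Gemin4* (28.4 ± 0.880) overlapped each other in both groups, and so did *Gemin6* (19.0 ± 0.463) and *Gemin7* (17.9 ± 0.961). *Smn1* came next with 14.9 ± 1.44, below all values of *Gemin7*, then *Gemin2* with 8.0 ± 0.415 and *Gemin8* with 3.82 ± 0.413. The order of the 10 means was the same in mutants. *Wdr77*, the partner of *Prmt5*, was at 52.7 ± 1.93 per kb in WT, and *Ddx20* was at 19.5 ± 0.488. Since the count of *Gemin4* is uncertain, as said above, its level per kb and its ratio to *Ddx20* below are uncertain too.

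The choice of length matters for this order. Per kb of coding sequence, only 3 of the 10 genes kept their rank (*Strap*, *Gemin2* and *Gemin8*), *Clns1a* drew level with *Strap* at 310.1 ± 23.6 against 310.1 ± 1.80 in WT, and *Gemin7* (82.5 ± 4.43), whose coding sequence is only 387 of its 1782 exon bases, stood above *Gemin5* (44.7 ± 3.57). *Gemin8* was the lowest with both lengths, while *Strap* overlapped *Clns1a* in both groups per coding length. Among the Sm genes, the substrates of the machinery, levels per kb of exon in WT ran from 28.2 ± 0.902 for *Snrpd3* to 216.3 ± 6.18 for *Snrpb*, and *Snrpe* with 131.5 ± 5.89 was also above *Strap*.

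**Figure D3:**
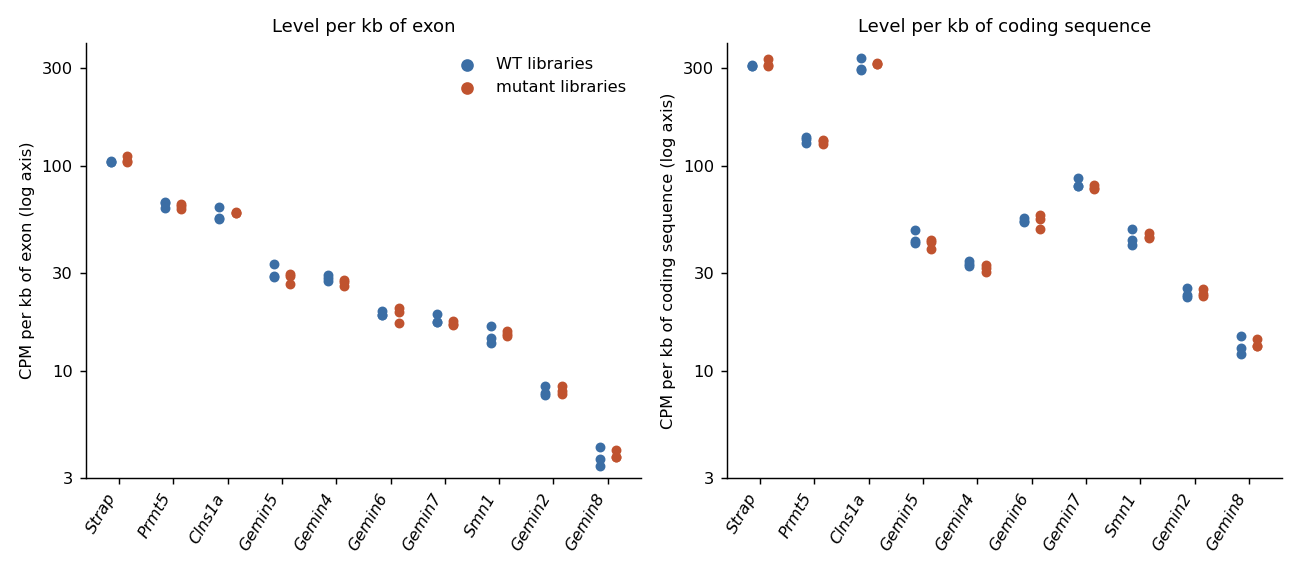
Level of each of the 10 genes in every library as CPM per kb of exon (left) and per kb of coding sequence (right), both on a log axis, with WT in blue and mutants in orange. Genes are ordered by their WT mean per kb of exon in both panels: the left panel falls from 105.4 in *Strap* to 3.82 in *Gemin8*, while *Clns1a* and *Gemin7* stand higher in the right panel.

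The RNAs for subunits of a complex might keep a fixed ratio even where their levels shift. Such RNA ratios depend on the length chosen and do not give the ratios of the proteins. The ratios of CPM per kb of exon of 8 pairs, picked after the values had been seen, were compared with two-sided exact permutation tests. With 3 against 3 libraries these tests cannot give a *P* below 0.1. *Prmt5* to *Wdr77* was 1.23 ± 0.0218 in WT and 1.203 ± 0.0441 in mutants, and *Gemin4* to *Ddx20* 1.46 ± 0.0370 and 1.43 ± 0.0363 (mean ± SD, n=3). *Smn1* to *Gemin2* was 1.87 ± 0.211 and 1.89 ± 0.121, and *Gemin6* to *Gemin7* was 1.06 ± 0.0748 and 1.11 ± 0.0977. Groups overlapped in 7 of the 8 pairs. The exception was *Gemin5* to *Smn1*, with 2.01, 1.99 and 2.13 in WT and 1.90, 1.77 and 1.97 in mutants, where all mutant ratios were below all WT ratios. Its exact *P* was 0.1, the smallest the design allows, and 0.667 after adjustment over the 8 pairs. Since the test could not pass and the pairs were picked with the values known, this ratio is a description only.

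The profiles over the 6 libraries were compared by the mean absolute difference of log2 CPM (prior count 2) after centring each gene on its mean. By this measure, *Gemin6* and *Strap* were nearest to each other (0.0395), as were *Gemin2* and *Clns1a* (0.0420) and *Smn1* and *Gemin8* (0.0604). *Prmt5* was the nearest of the 10 to both *Gemin4* (0.0430) and *Gemin7* (0.0421), and *Gemin7* the nearest to *Gemin5* (0.0454). These distances set none of the 10 apart, since between 214 and 1674 other tested genes lay nearer to each gene than did the nearest of the 10. The genes most like *Smn1* were *Mrpl12* (0.0044), *Nob1* (0.0160) and *Man2c1* (0.0174). Those most like *Prmt5* were *Mrpl53* (0.0074), *Uqcrc1* (0.0086) and *Epdr1* (0.0089).

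The steps of snRNP biogenesis before and after Sm ring assembly were described with 6 lists of other genes, 68 of them tested apart from *Snrpb*. None passed the threshold in edgeR or DESeq2. At an unadjusted *P* under 0.05 there were 6, or 8.82%, near the 8.43% of all tested genes. Among 8 other partners of SMN and the methylosome this was *Smndc1*, a splicing factor with a Tudor domain akin to that of SMN, at 48.8, 45.3 and 47.9 CPM in WT and 53.2, 52.7 and 51.8 CPM in mutants. The mutant values were all higher, with a log2 fold change of 0.15 (SE 0.05, unadjusted *P*=0.0110, adjusted *P*=0.437, edgeR).

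Among the Sm and Sm-like genes, 9 of 10 were tested and 0 had an unadjusted *P* under 0.05. The tenth, *Snrpn*, which encodes the neuronal relative of SmB, was left out by the filter with 0.1373 CPM or less in every library. The lowest *P* of that list was that of *Snrpe*, at 181.5, 187.9 and 171.8 CPM in WT and 187.0, 189.4 and 187.4 CPM in mutants, with a log2 fold change of 0.06 (SE 0.04, adjusted *P*=0.735, edgeR). Of 8 genes of snRNA export, cap modification and import, 0 did. The lowest was *Ncbp2*, a subunit of the nuclear cap-binding complex, at 127.3, 133.5 and 128.7 CPM in WT and 143.3, 137.2 and 134.7 CPM in mutants (log2 fold change 0.09, SE 0.04, adjusted *P*=0.599, edgeR).

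Of 22 genes of snRNA transcription and 3′ end processing, 8 were higher and 14 lower by point estimate, with a median log2 fold change of -0.05, and 3 had an unadjusted *P* under 0.05, or 13.6%, beside 8.43% of all tested genes. *Snapc4*, a subunit of the complex that binds snRNA promoters, was at 53.5, 48.2 and 44.3 CPM in WT and 58.3, 54.2 and 55.3 CPM in mutants (log2 fold change 0.20, SE 0.07, adjusted *P*=0.481, edgeR). *Ice2*, a subunit of the little elongation complex, was at 48.9, 45.4 and 46.4 CPM in WT and 42.3, 42.9 and 42.9 CPM in mutants (-0.13, SE 0.05, adjusted *P*=0.494, edgeR). *Ints2*, a subunit of the Integrator complex, which cuts the 3′ end of snRNA precursors, was at 128.0, 130.2 and 139.4 CPM in WT and 120.6, 120.8 and 125.8 CPM in mutants (-0.11, SE 0.04, adjusted *P*=0.535, edgeR). The groups did not overlap in 6 of the 22 genes, beside 15.2% of all tested genes. These were the 3 just given and, named after their values were seen, *Asun* (log2 fold change 0.08), *Ints6* (-0.09) and *Vwa9* (-0.07). Over the 68 tested genes of the lists together, the mutant values lay all above the WT values in 4 genes and all below in 6.

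Of 15 genes of the Cajal body and U6 maturation, 0 had an unadjusted *P* under 0.05, and the lowest was *Usb1*, which trims the end of U6, with a log2 fold change of -0.12 (SE 0.08, adjusted *P*=0.702, edgeR). Among 8 other arginine methyltransferases, *Prmt10* was at 38.2, 41.5 and 38.4 CPM in WT and 36.2, 35.97 and 34.7 CPM in mutants, all of them lower (log2 fold change -0.15, SE 0.05, adjusted *P*=0.4999, edgeR). *Prmt3* was at 101.0, 102.9 and 94.1 CPM in WT and 96.1, 85.0 and 91.9 CPM in mutants, which overlapped (-0.13, SE 0.06, adjusted *P*=0.591, edgeR). *Prmt10* and *Prmt3* were named for their low unadjusted *P*, so no contrast with *Prmt5* (log2 fold change -0.03) is read from them. The others of that list ran from -0.06 in *Prmt8* to 0.07 in *Prmt1*.

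**Figure D4:**
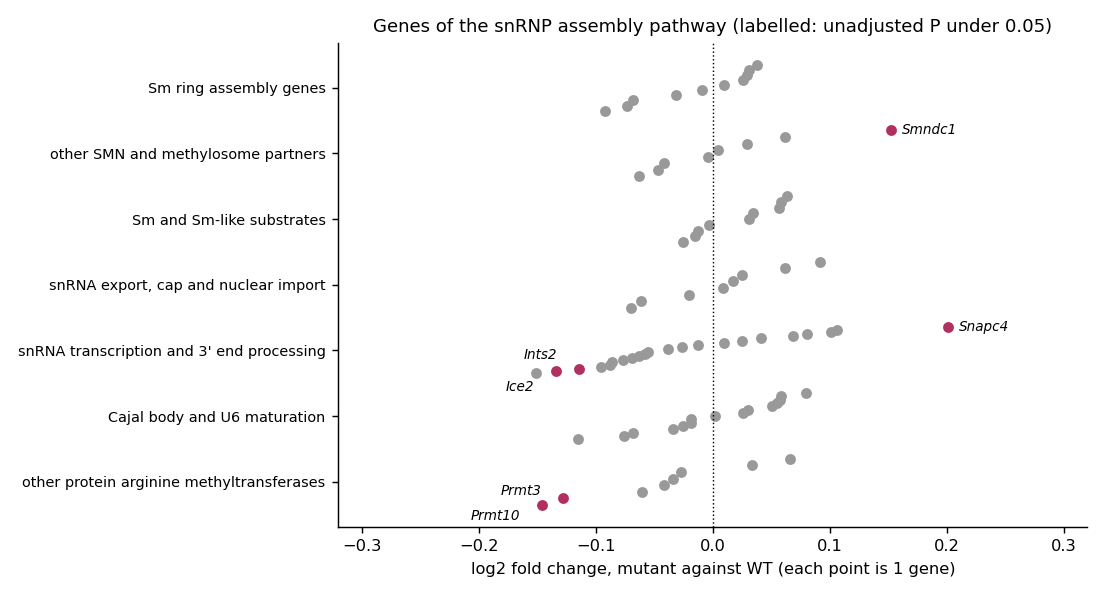
Log2 fold change of mutant against WT (horizontal axis) of every tested gene in the 7 groups named on the left, with 1 point per gene, sorted within its group; the second list includes *Prmt7*, which is also in the last, and the third includes *Snrpb*. Red points with a name had an unadjusted *P* under 0.05, which was true of 0 of the 10 assembly genes and of 6 of the 68 others.

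The start sites of the 10 genes were also compared, using RefSeq promoter windows of GRCm38.p6 from 250 bases before to 50 bases after the start, which were found for 10 of 10. Where a gene had several windows, as *Smn1* and *Gemin5* did, it counted if any of them held the letters. On either strand, the letters CCGGAAG of an ETS site were found in 4 of 10 genes, against 17.8% of the tested genes with a window. GGGCGG of an SP1 site was found in 5 of 10, against 67.0%. The letters of an NRF1 site were found in 2 of 10, against 10.3%, and CCAAT in 3 of 10, against 42.5%. No window held TATAAA (8.90% of tested genes) or AAGATGGC (4.69%). With the highest window of each gene, the median GC content was 56.8%, against 62.0% for tested genes. No motif was shared by all 10, so no window is printed.

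Across 13 other ways of computing the fold changes, none of the 10 genes passed the threshold. Of the 130 values, 114 kept the sign of the value given above and 16 did not. *Gemin4*, *Gemin5*, *Gemin7* and *Prmt5* were lower in mutants in all 13, while the sign of the other 6 genes turned in at least 1. In the 4 genes that kept their sign the size still moved: the log2 fold change ranged from -0.0981 to -0.0153 in *Gemin4*, from -0.1299 to -0.0287 in *Gemin5*, from -0.0953 to -0.0278 in *Gemin7* and from -0.0618 to -0.0128 in *Prmt5*. The values nearest to 0 came with the Y-linked level as covariate in *Gemin4*, without WT library 1 in *Gemin5* and *Gemin7*, and without mutant library 2 in *Prmt5*. Without WT library 1, the log2 fold change of *Smn1* was 0.10 in place of 0.03, that of *Gemin5* was -0.03 and that of *Gemin8* 0.12, which are the largest shifts of any library left out for these 3 genes.

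**Figure D5:**
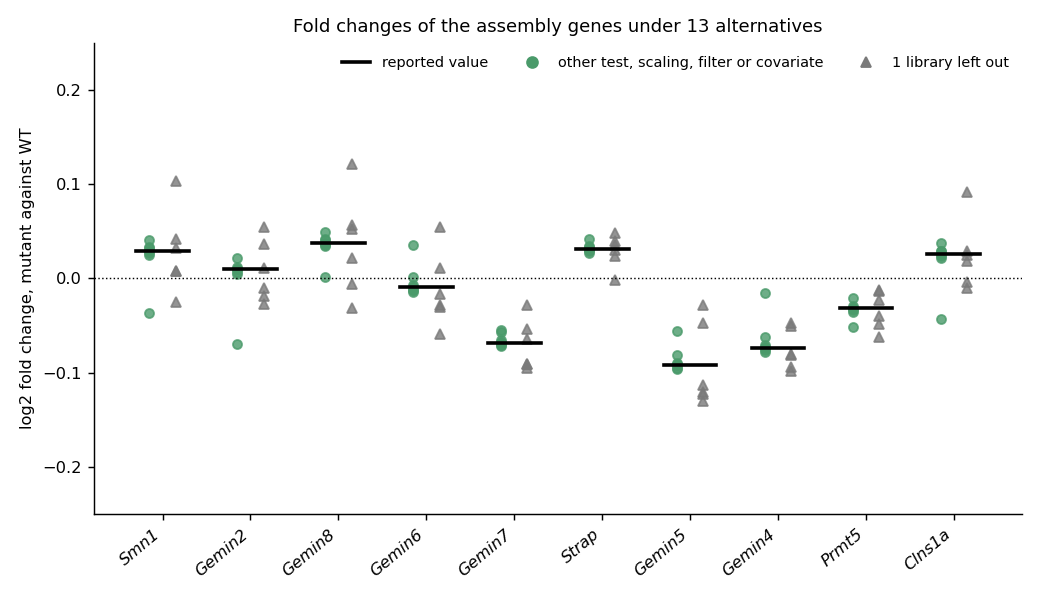
Log2 fold change of the 10 genes as reported (black bars), with another test, scaling, filter or covariate (green circles) and with 1 library left out (grey triangles). All values lie between -0.13 and 0.12, and only *Gemin7*, *Gemin5*, *Gemin4* and *Prmt5* keep every value on the same side of 0.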

How the data were processed

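RNA of 6 libraries (rRNA-depleted, stranded kit, paired reads) was mapped by the authors to mm10 with STAR. Reads were counted per gene with HTSeq in the study's methods and with featureCounts in the submitters' processing notes, and the strand setting is not given in the sources used here. The deposited table holds raw counts for 24421 symbols, of which 3338 had no count. Groups follow the genotype that the labels give. The libraries held 36378803 to 74909774 counts. The shares of counting error and of the spread between pools of heads in the precision were not separated. Genes kept by filterByExpr (15584) were tested with edgeR (version 4.0.16, R 4.3.3): TMM, robust quasi-likelihood, two-sided, no covariate, Benjamini-Hochberg over all tested genes, threshold 0.05. DESeq2 (version 1.42.0) was an alternative. The common biological coefficient of variation was 0.0871. Every pair of libraries differed beyond counting noise. The scripts were tested on simulated data. Lengths and overlaps come from Gencode M21, later than the annotation used for counting. Figures used matplotlib (version 3.10.9).

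The 10 genes and all lists were chosen with earlier results of these data known. The genes named are the 10 genes, *Snrpb*, each list's genes at an unadjusted *P* under 0.05 or else its lowest, and the nearest profiles. *Wdr77*, *Ddx20*, the Sm genes in the comparison of levels, the overlapping genes, the snRNAs and the ratios were chosen after the values were seen.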

Additional observations from a re-analysis of the deposited data

How the results depend on the processing

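None of the 10 genes passed the threshold under any of the 13 alternatives. The number of all genes past it was 84 with DESeq2, 11 without the filter, 0 with the Y-linked level as covariate and 0 to 6 with 1 library left out (6 without WT library 1, 5 without mutant library 1), in place of 1. The replicate number as a block called 1 gene, not the same one, and changed no call among the 10 genes. The replicate numbers come from the sample titles. In the headers of the count table, no mutant library shares a number with a WT library. Whether the numbers of the titles pair the libraries was not settled. Same-numbered libraries deviated together with correlations of 0.169, 0.0317 and 0.360, and differently numbered ones with correlations from -0.245 to 0.0875. WT libraries 1 and 3 each correlated best with the mutant library of the same number. WT library 2 correlated best with mutant library 1 (0.0386). The cause was not tested for any of these.

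The number of the 10 genes higher in mutants was 3 with the Y-linked covariate and 2 to 5 with 1 library left out, and 3 genes kept their rank with coding length. Signs turned as follows. With library size only, *Snrpb* had a log2 fold change of 0.0074 and *Gemin6* of 0.0013. With the Y-linked covariate, *Smn1* had -0.0368, *Gemin2* -0.0694, *Gemin6* 0.0359 and *Clns1a* -0.0428. With 1 library left out, the range was -0.0263 to 0.0188 for *Snrpb* (0.0152 without WT library 2 and 0.0188 without mutant library 2), -0.0251 to 0.103 for *Smn1*, -0.0271 to 0.0550 for *Gemin2*, -0.0585 to 0.0542 for *Gemin6*, -0.0313 to 0.121 for *Gemin8*, -0.0021 to 0.0481 for *Strap* and -0.0107 to 0.0914 for *Clns1a*.

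Whole heads dilute a change in the deleted cells, and with 3 libraries a group, differences inside the intervals given could not be seen.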
